A study of Arabidopsis thaliana with 12 samples.

Results

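The effect of the atrx-2 genotype under low light was read from 3 atrx-2 and 3 Col-0 libraries of Arabidopsis thaliana seedlings, 6 of the 12 libraries of the series. All 6 were chosen by their labels, and every gene in the tables was considered. The series, whose title places ATRX with LHP1 at loci targeted by PRC2, sequenced total RNA of whole seedlings at 10 days, grown in a greenhouse in long days. The groups used here were atrx-2 under low light (30 µmol), Col-0 wild type under low light, atrx-2 under normal light (130 µmol) and Col-0 under normal light, with 3 libraries each. The labels give neither the kind of mutation in atrx-2 nor whether replicates came from separately grown seedlings, so p-values measure the spread between these libraries, which may be technical. Of 33602 loci, 20783 passed the filter on low counts and were tested.

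ATRX is a chromatin remodeller of the SNF2 family that takes part in placing the histone variant H3.3. LHP1 binds histone H3 trimethylated at lysine 27, the mark that PRC2 writes on genes kept silent, among them the flowering repressor FLC and many developmental regulators. In mammals ATRX works with DAXX to place H3.3 at repeats and telomeres, and in Arabidopsis its loss is known to alter H3.3 at genes and at ribosomal RNA repeats.

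The 6 low-light libraries held 13733302 to 21435587 estimated counts. The 18S ribosomal RNA locus took 12.4 ± 2.81% of counts in atrx-2 and 13.0 ± 3.19% in Col-0, and chloroplast genes took 6.34 ± 1.24% in atrx-2 and 6.55 ± 2.11% in Col-0 (SD, n = 3 each). Neither difference passed a two-sided exact permutation test (p = 0.7 for 18S and p = 1 for chloroplast genes, where 0.1 is the smallest p possible). Col-0 replicate 3 had the lowest total and the highest share of both, 16.7% and 8.90%. Root markers summed to 2080 to 2440 CPM (counts scaled to the size of each library) in atrx-2 and 1820 to 2500 CPM in Col-0, epidermis and guard cell markers to 319 to 388 CPM in atrx-2 and 328 to 371 CPM in Col-0, and phloem and xylem markers to 196 to 213 CPM in atrx-2 and 221 to 224 CPM in Col-0. Of 11 pollen and seed markers, 6 (VGD1, PPME1, CRU2, CRU3, SESA1 and SESA3) were at 0 in every library. In RNA of whole seedlings, fewer cells of a type and less RNA per cell cannot be told apart.

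Few genes were called between the genotypes. At an adjusted p under 0.05 (edgeR quasi-likelihood test with Benjamini-Hochberg adjustment), 15 of 20783 loci (0.0722%) were called, 9 higher (0.0433%) and 6 lower (0.0289%) in atrx-2. They were 11 of 19942 protein-coding genes, 3 of 286 pseudogenes and 1 of 98 non-coding RNA genes tested. The median log2 difference, atrx-2 over Col-0, was 0.000498 over all tested loci and the median standard error was 0.127. Unadjusted p-values were under 0.05 at 1359 loci (6.54%), and the values of the genotypes did not overlap at 2677 loci (12.9%). With the replicate number as a block the count was 14, or 62 (26 higher and 36 lower) when the block was fitted to the 6 low-light libraries alone. DESeq2 called 57 of 23397 loci (0.244%), which included all 15. Without Col-0 replicate 2, edgeR called 7.

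**Figure D1:**
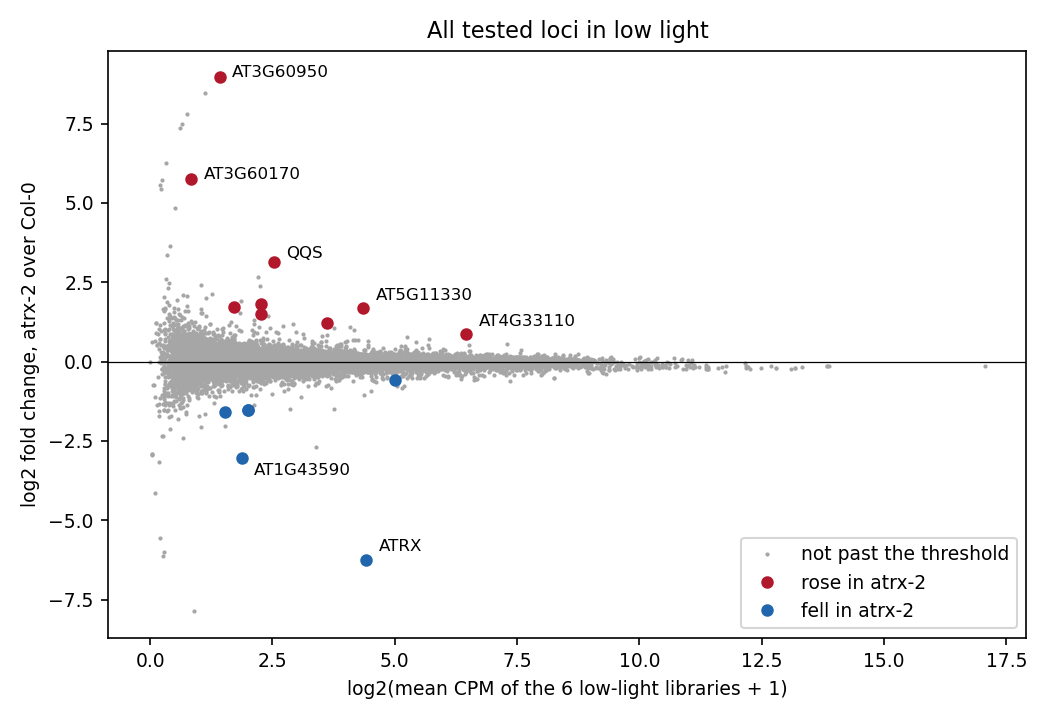
Log2 difference between atrx-2 and Col-0 under low light (vertical axis) against the mean level of the 6 low-light libraries as log2 of CPM plus 1 (horizontal axis) for the 20783 tested loci, with the 9 that rose in red and the 6 that fell in blue. Most loci lie near 0, ATRX stands lowest among the called loci, and the fitted position of a locus with 0 counts in a genotype depends on the prior count.

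ATRX itself (AT1G08600; chromosome 1, 2723677 to 2733613, plus strand; all coordinates are TAIR10.1) had 7, 6 and 15 counts in atrx-2 against 681, 564 and 537 in Col-0. All atrx-2 libraries were far below all Col-0 libraries. The level was 0.505 ± 0.179 CPM in atrx-2 and 40.3 ± 4.60 CPM in Col-0 (SD, n = 3 each), and ATRX fell by 6.25 ± 0.17 on the log2 scale (75.9-fold lower, adjusted p = 1.85e-11). Under normal light it had 20, 18 and 16 counts in atrx-2 against 753, 733 and 905 in Col-0. No locus next to ATRX was called. The non-coding RNA gene AT1G08592, which starts 1766 bases before ATRX, had 21, 1 and 40 counts in atrx-2 and 0 in each Col-0 library, at least 17.3-fold higher when 3 counts in all Col-0 libraries together are taken as the floor (adjusted p = 0.471). AT1G08610, a pentatricopeptide repeat gene whose end overlaps that of ATRX by 18 bases, had 78, 59 and 100 counts in atrx-2 against 106, 74 and 80 in Col-0, a log2 difference of -0.40 (adjusted p = 0.602). Of the 30 loci next to a called locus, 16 were tested and 0 were called, by edgeR, while 4 had an unadjusted p under 0.05, against 6.54% of all loci, and the median log2 difference of the 16 was -0.02.

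LHP1 (TFL2, AT5G17690), the reader of the PRC2 mark that the title names, had 303, 221 and 371 counts in atrx-2 against 315, 237 and 208 in Col-0, or 16.6 ± 1.47 CPM in atrx-2 and 17.0 ± 1.16 CPM in Col-0. The genotypes overlapped, and the log2 difference was -0.03 ± 0.09 (adjusted p = 0.993). FLC (AT5G10140), the MADS-box repressor of flowering, had 40, 48 and 56 counts in atrx-2 against 20, 23 and 26 in Col-0. Every atrx-2 count exceeded every Col-0 count. Its log2 difference was 0.79 ± 0.28 (2.73 ± 0.483 CPM in atrx-2 and 1.61 ± 0.550 CPM in Col-0, adjusted p = 0.602), and under normal light it was 0.88 (adjusted p = 0.402). FLC did not pass the test at either light level.

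Genes of the Polycomb machinery were not called by edgeR, with or without the block, or by DESeq2. Of the PRC2 core and VIN3 family, 8 of 11 were tested, 0 had an unadjusted p under 0.05, against 6.54% of all loci, and log2 differences ran from -0.05 to 0.17. Of LHP1 and the PRC1 genes 7 of 8 were tested, and of the H3.3 genes and histone H3 chaperones all 11 were, again with 0 under an unadjusted 0.05 and medians of 0.07 and 0.10. Among 22 genes of gene silencing and DNA methylation, MORC6, an ATPase of RNA-directed silencing, had 243, 193 and 295 counts in atrx-2 against 178, 191 and 147 in Col-0 (log2 0.23, adjusted p = 0.732), and it rose under normal light (log2 0.65, adjusted p = 0.0232). ROS1, a DNA demethylase, had 505, 434 and 682 counts in atrx-2 against 614, 585 and 493 in Col-0 (log2 -0.34, adjusted p = 0.57). In CPM, MORC6 was higher and ROS1 lower in every atrx-2 library than in any Col-0 library.

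Of 19 developmental regulators known as PRC2 targets, 10 passed the filter on low counts, beside 20783 of all 33602 loci. WUS, the stem cell regulator of the shoot, and LEC1, an embryo regulator, had 0 counts in every low-light library. DOG1, the seed dormancy gene, had 21, 27 and 31 counts in atrx-2 against 43, 44 and 38 in Col-0 (log2 -0.92, adjusted p = 0.658), and AGL24, a flowering activator, had 31, 17 and 50 in atrx-2 against 67, 30 and 41 in Col-0 (log2 -0.76, adjusted p = 0.719). No member was called, and 2 of 10 had an unadjusted p under 0.05, both lower, beside 3.81% of all loci. The list median was -0.37, which became -0.14 without Col-0 replicate 2, -0.18 without atrx-2 replicate 3 and -0.57 without Col-0 replicate 3. FT, the mobile flowering signal, was not tested at 6, 4 and 10 counts in atrx-2 and 19, 7 and 2 in Col-0. Of the 6 tested genes of the FLC clade, FLC was alone under an unadjusted 0.05.

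Beyond ATRX, the calls with the smallest p were protein-coding genes that rose. AT5G11330 (chromosome 5, 3617138 to 3618913, minus strand), annotated as a FAD/NAD(P)-binding oxidoreductase, had 505, 448 and 630 counts in atrx-2 against 169, 137 and 108 in Col-0. The lowest atrx-2 library was far above the highest Col-0 library. It rose 3.21-fold, with 29.6 ± 0.764 CPM in atrx-2 and 9.21 ± 0.217 CPM in Col-0 (log2 1.68 ± 0.09, adjusted p = 3.14e-07), and it rose under normal light too (log2 1.62, adjusted p = 2.13e-07). AT4G33110 (chromosome 4, 15972323 to 15974797, minus strand), in the S-adenosylmethionine-dependent methyltransferase superfamily, had 1972, 1662 and 2354 counts in atrx-2 against 1047, 942 and 768 in Col-0. Again the genotypes were apart, and the gene rose 1.81-fold to 112 ± 0.294 CPM in atrx-2 against 61.9 ± 3.298 CPM in Col-0 (adjusted p = 0.000734). It shares 9.27% of its 50-base windows with its neighbour AT4G33120, which had 66, 52 and 89 counts in atrx-2 and 53, 43 and 31 in Col-0 (log2 0.45, adjusted p = 0.726), and its end overlaps AT4G33100 by 167 bases. AT2G40520 (chromosome 2, 16922337 to 16925961, plus strand), of the nucleotidyltransferase family, had 269, 239 and 329 counts in atrx-2 against 102, 125 and 74 in Col-0. It rose 2.33-fold, with all atrx-2 values above Col-0 (15.7 ± 0.403 CPM in atrx-2 and 6.74 ± 1.33 CPM in Col-0, adjusted p = 0.00141). Per transcript length, AT4G33110 was the most abundant of these, at 71.5 ± 5.18 TPM in atrx-2 and 35.9 ± 2.18 TPM in Col-0. These 3 genes and ATRX were called under all 15 alternative settings.

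**Figure D2:**
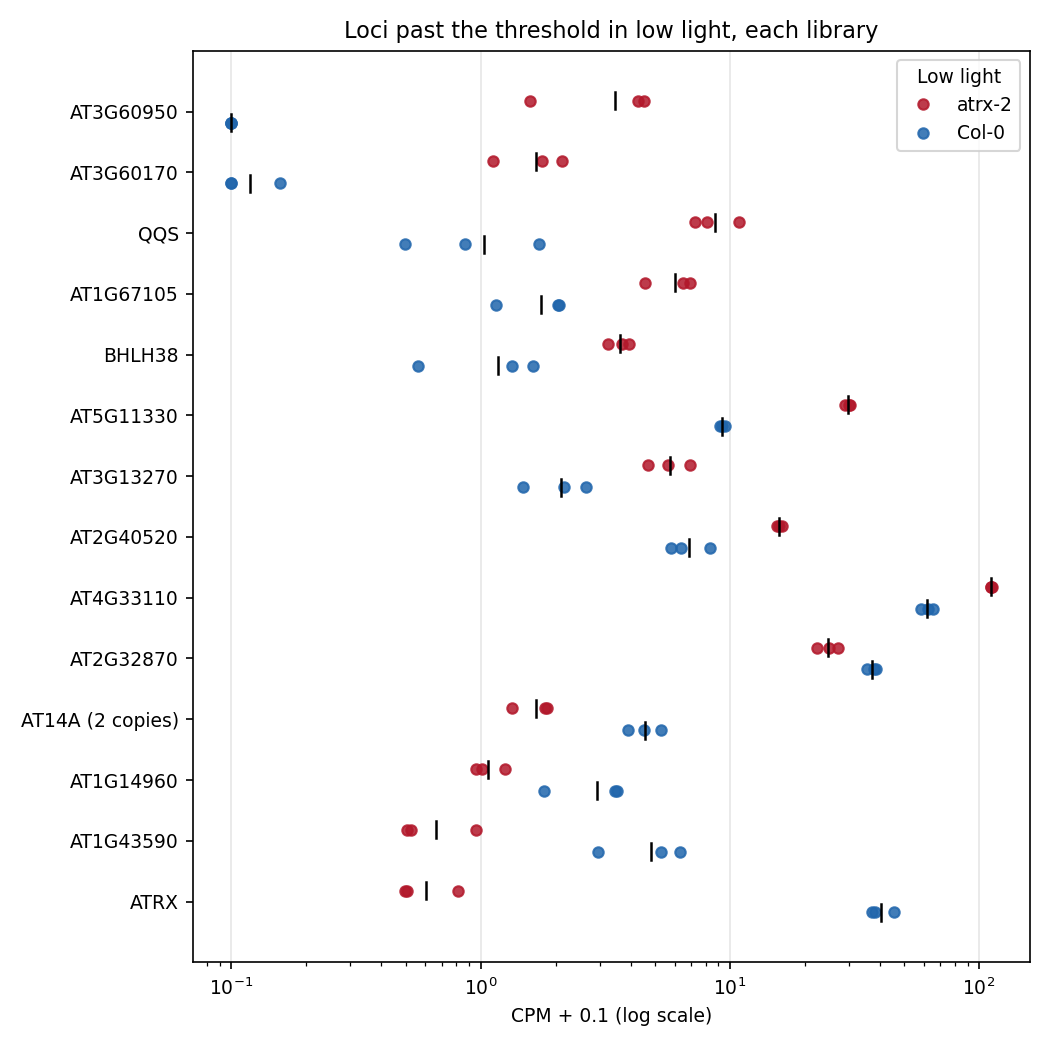
CPM plus 0.1 on a log axis for each called locus (rows) in the 3 atrx-2 libraries (red) and, below them, the 3 Col-0 libraries (blue) under low light, with a bar at each mean and the AT14A copies drawn as 1 row. In every row all atrx-2 points lie on the same side of all Col-0 points, as at AT5G11330 with means of 29.6 CPM in atrx-2 and 9.21 CPM in Col-0.

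QQS (AT3G30720; chromosome 3, 12349047 to 12349933, plus strand) is an orphan gene with no relatives outside Arabidopsis thaliana that affects the balance of starch and protein. It had 140, 160 and 150 counts in atrx-2 against 29, 6 and 9 in Col-0, and the genotypes did not overlap. QQS rose 8.8-fold, the largest rise among called loci with counts in every library (8.63 ± 1.92 CPM in atrx-2 and 0.927 ± 0.629 CPM in Col-0, log2 3.14 ± 0.31, adjusted p = 0.000424). The log2 difference was 3.92 without Col-0 replicate 1, which had the highest Col-0 count, and 2.76 without Col-0 replicate 2, which had the lowest. Under normal light it had 139, 169 and 175 counts in atrx-2 against 22, 30 and 30 in Col-0 and rose as well (log2 2.65, adjusted p = 0.000677). Its known partner NF-YC4, a transcription factor subunit, had 724, 587 and 797 counts in atrx-2 and 826, 653 and 569 in Col-0 (log2 -0.21, adjusted p = 0.602), and SNRK1.1, a kinase of energy signalling, had a log2 difference of -0.05. Of 17 genes of starch synthesis and breakdown, 0 were called, and the starch synthase SS1 had the smallest p (log2 -0.29, adjusted p = 0.355). The sequence before QQS is shown because of a repeated run that lies in it, in the 250 bases before the annotated start (RefSeq, TAIR10.1, chr3:12348797-12349046, plus strand), where capitals mark a run of 10 bases that occurs 2 times:
QQS: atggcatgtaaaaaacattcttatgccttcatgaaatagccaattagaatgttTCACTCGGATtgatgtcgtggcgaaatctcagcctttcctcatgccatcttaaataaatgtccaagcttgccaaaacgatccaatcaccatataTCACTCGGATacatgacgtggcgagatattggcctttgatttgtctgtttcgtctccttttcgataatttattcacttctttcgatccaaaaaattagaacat
A recurring run of at least 10 bases is present in 38.8% of 26711 upstream sequences of the same length, so its presence does not set QQS apart.

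A pair of loci on chromosome 3 was nearly silent in Col-0. AT3G60950 (22524475 to 22530306, plus strand), annotated as a C2 domain and endonuclease/exonuclease/phosphatase protein, had 26, 62 and 93 counts in atrx-2 and 0 in all 3 Col-0 libraries. It rose, at least 50.6-fold by the same floor (adjusted p = 0.0055), and under normal light it had 33, 47 and 24 counts in atrx-2 against 0, 2 and 0 in Col-0 (adjusted p = 0.0335). All of its 50-base windows occur elsewhere in the genome, among others in AT3G61030 and AT3G61050, so its reads may belong to a copy. AT3G61030 had 2, 19 and 23 counts in atrx-2 against 0, 0 and 1 in Col-0, a ratio of 36.9 with a 95% counting interval of 6.29 to 1490 (adjusted p = 0.278); such intervals and floors cover counting error only. AT3G60170 (22232512 to 22236531, plus strand), a pseudogene 292 kb from AT3G60950 that shares no 50-base window with another place and lies within the annotated span of AT3G60164 (not tested), had 18, 30 and 35 counts in atrx-2 against 1, 0 and 0 in Col-0. It rose, with a ratio of 69.7 (counting interval 12.2 to 2780, adjusted p = 0.0055). Its adjusted p was 0.0561 in the blocked fit, 0.0519 without Col-0 replicate 1 and 0.0649 without Col-0 replicate 2.

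The other called pseudogenes moved in opposite directions. AT3G13270 (chromosome 3, 4285851 to 4288332, minus strand) had 97, 101 and 97 counts in atrx-2 against 37, 21 and 30 in Col-0. It rose 2.83-fold with no overlap (5.65 ± 1.11 CPM in atrx-2 and 1.999 ± 0.584 CPM in Col-0, adjusted p = 0.0164), and it rose under normal light (log2 1.595, adjusted p = 0.00467). Its low-light adjusted p was 0.0843 in the blocked fit, 0.0557 and 0.0956 without atrx-2 replicate 1 or 2, and 0.092 and 0.118 without Col-0 replicate 1 or 2. AT1G43590 (chromosome 1, 16414121 to 16414627, plus strand) had 15, 6 and 9 counts in atrx-2 against 51, 94 and 61 in Col-0, with every atrx-2 library lower. It fell 8.27-fold (0.562 ± 0.254 CPM in atrx-2 and 4.74 ± 1.71 CPM in Col-0, log2 -3.05 ± 0.38, adjusted p = 0.00376), and 11.6% of its windows occur elsewhere. With AT3G60170, 3 of 286 tested pseudogenes (1.05%) were called, against 0.0722% of all tested loci.

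Besides ATRX and AT1G43590, 4 protein-coding loci fell. AT3G28290 and AT3G28300 (AT14A; chromosome 3, 10547441 to 10549401 and 10565674 to 10567634, plus strand), which encode transmembrane proteins with a DUF677 domain, have identical sequence windows and identical values and are 1 measurement. Each had 30, 26 and 26 counts in atrx-2 against 68, 79 and 52 in Col-0. The genotypes were apart, and the locus fell 2.87-fold (1.57 ± 0.288 CPM in atrx-2 and 4.47 ± 0.704 CPM in Col-0, adjusted p = 0.0055); without Col-0 replicate 2 the adjusted p was 0.0649. AT2G32870 (chromosome 2, 13944538 to 13946790, minus strand), a TRAF-like protein gene, had 437, 401 and 470 counts in atrx-2 against 632, 576 and 454 in Col-0. Scaled to library size no values overlapped, with 24.8 ± 2.37 CPM in atrx-2 and 37.3 ± 1.69 CPM in Col-0, and it fell 1.51-fold (adjusted p = 0.00972), the smallest fold called. Its adjusted p was 0.0561 in the blocked fit, 0.0543 and 0.0813 without atrx-2 replicate 1 or 3, and 0.08 without Col-0 replicate 2. AT1G14960 (chromosome 1, 5159192 to 5160179, minus strand), of the polyketide cyclase and lipid transport family, had 16, 17 and 18 counts in atrx-2 against 60, 52 and 20 in Col-0. All CPM values of atrx-2 lay below Col-0, and it fell 2.99-fold (0.971 ± 0.155 CPM in atrx-2 and 2.83 ± 0.979 CPM in Col-0, adjusted p = 0.03). That p was 0.0617 in the blocked fit, 0.125 in a fit of the 6 low-light libraries alone, 0.13, 0.084 and 0.208 without atrx-2 replicate 1, 2 or 3, and 0.223 and 0.185 without Col-0 replicate 1 or 2.

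Among regulators of the iron deficiency response, BHLH38 rose under low light, and its genotype effect differed between the light levels. BHLH38 and its neighbour BHLH39 encode basic helix-loop-helix factors that act with FIT to switch on iron uptake when iron is short. Their upstream sequences are shown because both genes had higher counts in atrx-2 and lie 1144 bases apart; each is the 250 bases before the annotated start on the minus strand (RefSeq, TAIR10.1, chr3:21085246-21085495 for BHLH38 and chr3:21087711-21087960 for BHLH39), and capitals mark 5 runs of at least 10 bases, up to 16 and 61 bases in all, that both hold:
BHLH38: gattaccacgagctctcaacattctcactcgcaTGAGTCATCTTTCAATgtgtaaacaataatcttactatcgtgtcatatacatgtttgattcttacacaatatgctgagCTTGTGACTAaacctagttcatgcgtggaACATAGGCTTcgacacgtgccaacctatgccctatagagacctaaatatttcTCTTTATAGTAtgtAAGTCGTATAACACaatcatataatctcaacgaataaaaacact
BHLH39: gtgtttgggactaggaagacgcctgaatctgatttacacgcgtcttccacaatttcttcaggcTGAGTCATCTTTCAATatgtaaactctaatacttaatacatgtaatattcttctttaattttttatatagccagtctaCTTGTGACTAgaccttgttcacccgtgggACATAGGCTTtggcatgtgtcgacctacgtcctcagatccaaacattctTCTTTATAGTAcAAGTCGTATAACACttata
How often the upstream sequences of other neighbouring genes share such runs was not counted. The BHLH38 sequence holds 1 G-box (letters CACGTG, a palindrome), which 6.58% of the 26711 upstream sequences and 7.28% of those of 19941 tested genes hold. Among the 11 called protein-coding genes, which count both AT14A copies, the GAGA motif (GAGAGA, either strand) was found upstream of 2, against 19.3% of the tested genes. The telobox (AAACCCTA, either strand) was found upstream of 1, against 3.5% of the tested genes.

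BHLH38 (AT3G56970; chromosome 3, 21084035 to 21085245, minus strand) had 63, 57 and 66 counts in atrx-2 under low light against 22, 7 and 18 in Col-0. All atrx-2 libraries were above all Col-0 libraries. It rose 3.32-fold (3.52 ± 0.360 CPM in atrx-2 and 1.07 ± 0.550 CPM in Col-0, log2 1.73 ± 0.27, adjusted p = 0.0237). Under normal light the order was the opposite, with 104, 118 and 97 counts in atrx-2 against 157, 175 and 259 in Col-0 (5.41 ± 0.642 CPM in atrx-2 and 9.26 ± 1.11 CPM in Col-0, log2 -0.78, adjusted p = 0.241). The difference between the genotype effects was 2.51 ± 0.33 on the log2 scale (interaction adjusted p = 0.0461), and BHLH38 was the only locus of 20783 (0.00481%) called for it by edgeR. The low-light adjusted p was 0.0978 in the blocked fit, 0.102 in a fit of the 6 low-light libraries alone, 0.0791, 0.121 and 0.0552 without atrx-2 replicate 1, 2 or 3, and 0.0852 and 0.0649 without Col-0 replicate 1 or 2. The interaction had an adjusted p of 0.184 with the block, 0.215, 0.242 and 0.0606 without those atrx-2 replicates in turn, and 0.0878 without Col-0 replicate 1. BHLH38 overlaps PIP5K4 by 386 bases, and PIP5K4 had a log2 difference of -0.24 (adjusted p = 0.956).

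Of 20 genes of the iron deficiency response, 19 were tested, BHLH38 alone rose, and 6 had a higher level in atrx-2 at an unadjusted p under 0.05, against 2.73% of all loci, with 0 lower. In 5 all atrx-2 values lay above Col-0, against 6.22% of all loci. BHLH39 had 72, 78 and 92 counts in atrx-2 against 52, 16 and 41 in Col-0 (log2 0.90, adjusted p = 0.546), and BHLH100 had 51, 52 and 45 in atrx-2 against 34, 3 and 20 in Col-0 (log2 1.15, adjusted p = 0.662). In Col-0 replicate 2 the counts of BHLH38, BHLH39 and BHLH100 were the lowest of all 6 libraries. IMA2 (AT1G47395), which encodes a small peptide that promotes iron uptake, had 85, 71 and 102 counts in atrx-2 against 47, 27 and 15 in Col-0. Its atrx-2 values were all higher, at 4.83 ± 0.0308 CPM in atrx-2 and 1.89 ± 0.685 CPM in Col-0 (log2 1.31, adjusted p = 0.501, or 0.041 with the block on the 6 low-light libraries), and under normal light the log2 difference was -1.30. Among the uptake genes, IRT1, the root iron transporter, had 2389, 1050 and 776 counts in atrx-2 and 2113, 1020 and 1994 in Col-0 (log2 -0.54, adjusted p = 0.89). FRO2, the ferric reductase, had 1449, 537 and 410 in atrx-2 and 1040, 454 and 1006 in Col-0 (log2 -0.32, adjusted p = 0.968). For both the genotypes overlapped. The list median was 0.17 under low light and -0.24 under normal light, and the interaction had an unadjusted p under 0.05 at 9 of the 19, against 4.4% of all loci. FER1, an iron storage ferritin, had 3027, 2354 and 4713 counts in atrx-2 against 2009, 2181 and 1401 in Col-0 (log2 0.57, adjusted p = 0.501), and all atrx-2 values were above Col-0; under normal light the difference was 0.76.

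**Figure D3:**
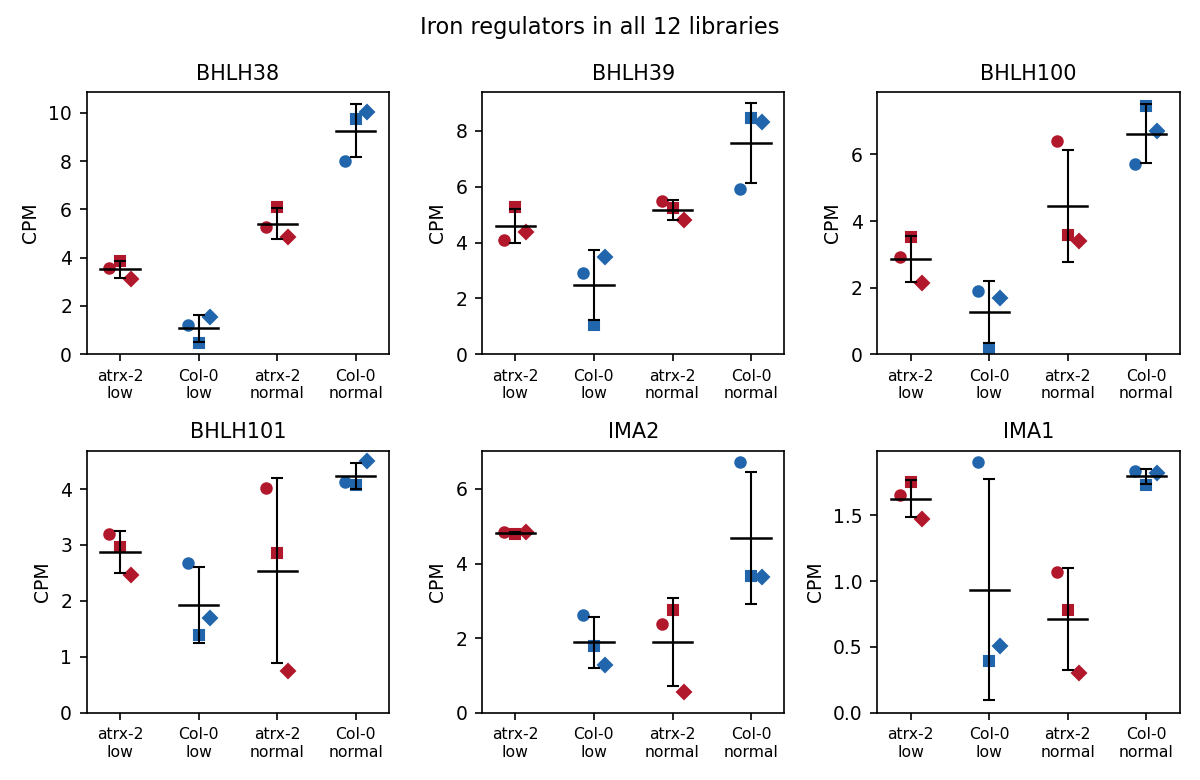
CPM of 6 iron regulators (panels) in all 12 libraries, with groups on the horizontal axis in the order atrx-2 low light, Col-0 low light, atrx-2 normal light, Col-0 normal light; circles, squares and diamonds are replicates 1, 2 and 3, and bars give mean ± SD. BHLH38 averaged 3.52 CPM in atrx-2 and 1.07 CPM in Col-0 under low light, but 5.41 CPM in atrx-2 and 9.26 CPM in Col-0 under normal light.

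The remaining called locus, the non-coding RNA gene AT1G67105 (chromosome 1, 25057479 to 25058264, plus strand), had 120, 95 and 94 counts in atrx-2 against 35, 16 and 23 in Col-0. All atrx-2 libraries were higher, and it rose 3.53-fold (log2 1.82 ± 0.24, adjusted p = 0.0055); without Col-0 replicate 2 the adjusted p was 0.0633. Under normal light both genotypes were far higher and overlapped, with 480, 473 and 459 counts in atrx-2 and 330, 385 and 629 in Col-0 (log2 0.19, adjusted p = 0.737). The interaction of 1.63 was not called by edgeR (adjusted p = 0.545) and was called by DESeq2 (adjusted p = 0.000782).

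No library is shared between the light levels. Under normal light 14 of 20783 loci (0.0674%) were called, and 7 of the 15 low-light loci were among them: ATRX, AT5G11330, QQS, AT4G33110, AT2G40520, AT3G60950 and AT3G13270. Of the 15, 14 had the same sign under normal light, with BHLH38 the exception. AT2G32870 had a normal-light log2 difference of -0.06 (adjusted p = 0.852), against -0.59 under low light, and its interaction was not called (adjusted p = 0.978). The AT14A locus had -1.38 (adjusted p = 0.0524), AT1G14960 had -1.09 (adjusted p = 0.0843) and AT1G43590 had -1.99 (adjusted p = 0.0954) under normal light.

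**Figure D4:**
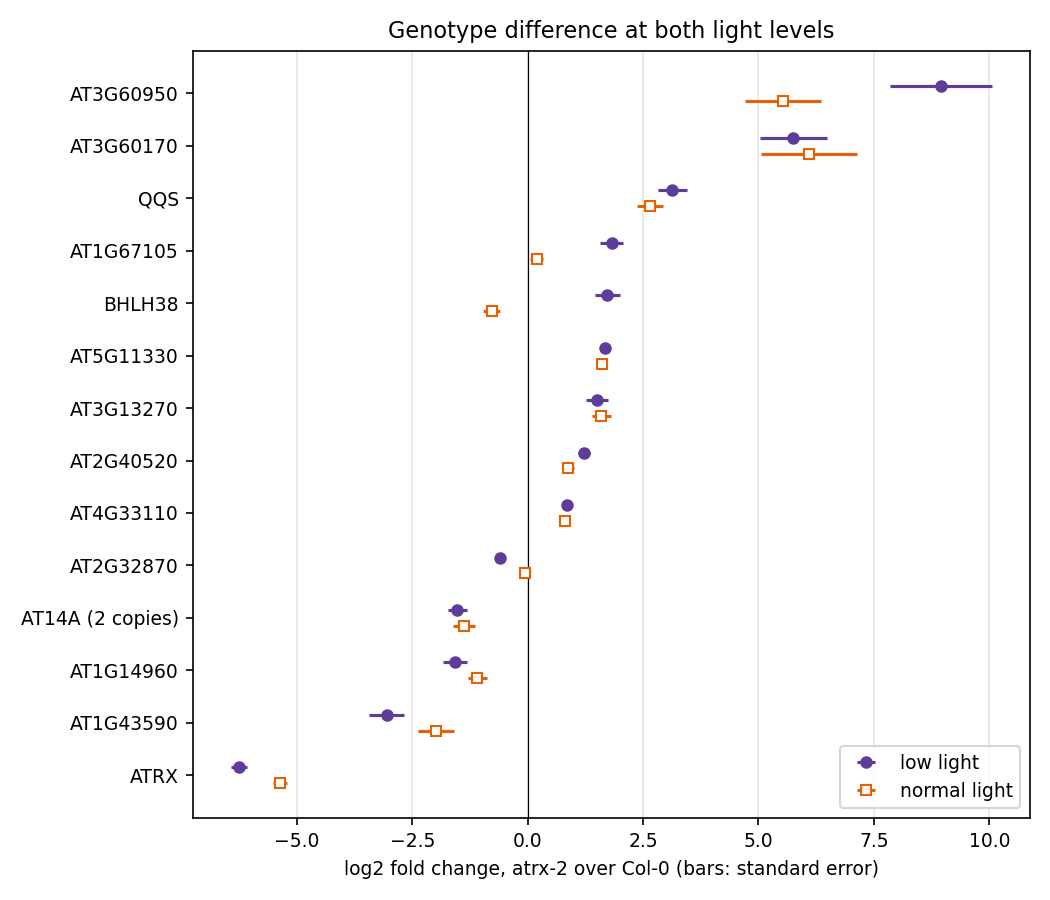
Log2 difference between atrx-2 and Col-0 with its standard error for each called locus under low light (purple circles) and normal light (orange squares). The pairs of points lie on the same side of 0 except for BHLH38, at 1.73 under low light and -0.78 under normal light.

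Nuclear genes of photosynthesis had slightly lower levels in atrx-2, and edgeR called none of them. DESeq2 called LHCB1.5 (LHB1B2, AT2G34420; log2 -0.24, adjusted p = 0.0238) and PSAF (adjusted p = 0.0239). All 20 antenna genes, which bind the light-harvesting chlorophyll, had a negative log2 difference, with a median of -0.20 and a range of -0.32 to -0.10, and 13 had an unadjusted p under 0.05, against 3.81% of all loci. In 12 of the 20 all atrx-2 values lay below Col-0, against 6.66% of all loci. LHCB1.4 (LHB1B1, AT2G34430), a subunit of the main photosystem II antenna, had 59544, 43855 and 58839 counts in atrx-2 against 69670, 55904 and 44788 in Col-0. Scaled to library size it had 3049 ± 309 CPM in atrx-2 and 3793 ± 106 CPM in Col-0, with no overlap (log2 -0.32, adjusted p = 0.393), and 0.01 under normal light. All 20 nuclear photosystem and electron transport genes were negative too (median -0.16, 10 under an unadjusted 0.05), such as PSAF, which docks plastocyanin at photosystem I, with 44960, 36267 and 50631 counts in atrx-2 and 54295, 43900 and 33301 in Col-0 (log2 -0.24, edgeR adjusted p = 0.423). All 10 Calvin cycle genes were negative (median -0.17, 6 under an unadjusted 0.05), and the Rubisco activase RCA had -0.21 (adjusted p = 0.549). Of 13 chlorophyll synthesis genes, 2 were under an unadjusted 0.05 (median -0.05), among them GUN4, which aids magnesium insertion, at -0.26 (adjusted p = 0.471). Under normal light the list medians were -0.07 for antenna, -0.12 for photosystem, -0.08 for Calvin cycle and -0.07 for chlorophyll synthesis genes. The edgeR interaction had an unadjusted p under 0.05 at 2 of 20, 1 of 20, 0 of 10 and 1 of 13 members in turn, against 4.4% of all loci.

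Single libraries differed within a genotype. The antenna list, as the median of log2 CPM relative to the mean of the 6 libraries, stood at 0.03, -0.11 and -0.21 in atrx-2 and 0.12, 0.09 and 0.08 in Col-0, so that atrx-2 replicate 1 was nearest to Col-0. The mesophyll markers, which include members of these lists, summed to 20900 to 23000 CPM in atrx-2 and 24500 to 25500 CPM in Col-0, and none was at 0. Of these markers 4 of 4 had an unadjusted p under 0.05, against 6.54% of all loci, with a median log2 difference of -0.19. Phloem and xylem markers, whose sums did not overlap either, had 2 of 8 under an unadjusted 0.05 and a median of -0.13. Root markers and epidermis and guard cell markers had 0. The part of mesophyll content in these results was not tested. The members of LHCB1 and LHCB2 also share sequence, so their counts are split estimates. Of the genes of the chloroplast genome, 117 of 133 were tested, and 0 had an unadjusted p under 0.05. Their median of -0.01 was -0.25 and 0.29 without Col-0 replicate 1 or 3 and 0.14 and -0.21 without atrx-2 replicate 1 or 3. Of 14 photoprotection and antioxidant genes, CSD2, a chloroplast copper/zinc superoxide dismutase, and CCS, its copper chaperone, had log2 differences of 0.39 and 0.29, and 3 others had lower values at an unadjusted p under 0.05, against 3.81% of all loci. Of these edgeR called 0, or CSD2 alone with the block on the 6 low-light libraries (adjusted p = 0.0271).

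**Figure D5:**
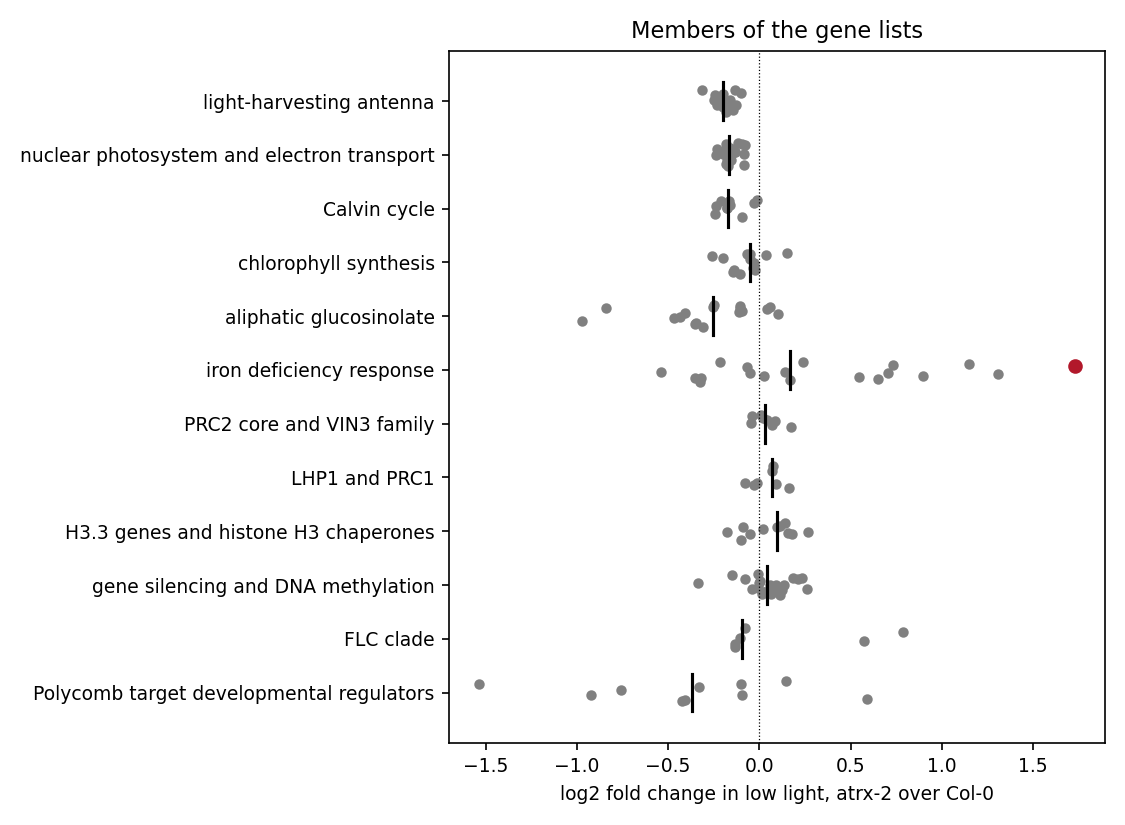
Log2 difference between atrx-2 and Col-0 under low light for the tested members of 12 gene lists (rows), with a point for each gene, a bar at each list's median and called genes in red. The antenna, photosystem and Calvin cycle lists lie wholly below 0, and BHLH38 in the iron list is the only called member shown.

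Genes for aliphatic glucosinolates, the methionine-derived defence compounds, also had mostly lower values in atrx-2. Of 17 tested, 14 were negative, 9 had an unadjusted p under 0.05, all lower, against 3.81% of all loci, 0 were called by edgeR, and the median was -0.25. Under normal light the list median was -0.21. The edgeR interaction had an unadjusted p under 0.05 at 1 of the 17, against 4.4% of all loci. MYB29, a transcription factor that activates the pathway, had 158, 130 and 172 counts in atrx-2 against 321, 241 and 143 in Col-0. Its CPM values did not overlap, at 8.65 ± 0.431 in atrx-2 and 15.3 ± 2.95 in Col-0 (log2 -0.84 ± 0.15, adjusted p = 0.0749), and it was called by DESeq2 (adjusted p = 0.00128) and by the block on the 6 low-light libraries (adjusted p = 0.0137). MAM1, which elongates the methionine chain, had 3083, 2499 and 3374 counts in atrx-2 against 4314, 3673 and 2199 in Col-0 (log2 -0.41, adjusted p = 0.266). It was called by DESeq2 (adjusted p = 0.0235) and by edgeR without Col-0 replicate 3 (adjusted p = 0.0271). CYP79F1, the entry enzyme of the core pathway, had -0.47 (adjusted p = 0.486). The list stood at -0.03, -0.17 and -0.17 in atrx-2 and at 0.25, 0.25 and -0.16 in Col-0, so Col-0 replicate 3 lay among the atrx-2 libraries, and without it the median was -0.39. Of 9 indole glucosinolate genes, made from tryptophan, 0 had an unadjusted p under 0.05 and the median was -0.02, with -0.17 to 0.13 over the alternatives.

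Of the 12 loci next in order of p with at least 1 CPM and no overlap, 5 were higher and 7 lower, with adjusted p of 0.0749 and above. DESeq2 called 11 of the 12, all but AT2G34340, and the block on the 6 low-light libraries called MYB29, AT3G44380, AT5G45428, NIT2 and VTC4. AT2G15042, a leucine-rich repeat gene, had 26, 33 and 46 counts in atrx-2 against 13, 4 and 5 in Col-0 (log2 2.001), and AT2G17140, a pentatricopeptide repeat gene, had 45, 51 and 62 in atrx-2 against 19, 20 and 17 in Col-0 (log2 1.24). AT3G60930, another pseudogene on chromosome 3, had 79, 58 and 94 counts in atrx-2 against 42, 30 and 26 in Col-0 (log2 0.98, adjusted p = 0.0995). NIT2, a nitrilase, had 398, 311 and 483 counts in atrx-2 against 223, 230 and 165 in Col-0 (log2 0.68, adjusted p = 0.106), and DESeq2 called it (adjusted p = 0.0066). VTC4, of ascorbate synthesis, had 1104, 867 and 1144 counts in atrx-2 against 775, 645 and 529 in Col-0 (log2 0.43). Lower values were seen at AT3G44380, a late embryogenesis abundant protein gene, with 84, 57 and 66 counts in atrx-2 against 135, 107 and 88 in Col-0 (log2 -0.91), and at ANNAT7, an annexin, with 37, 18 and 47 in atrx-2 against 103, 89 and 34 in Col-0 (log2 -1.38, DESeq2 adjusted p = 0.00258). The widest difference among the 12 was at AT5G45428, with 81, 17 and 35 counts in atrx-2 against 168, 277 and 256 in Col-0 (log2 -2.70, adjusted p = 0.106). The other lower loci were AT2G34340 (-1.13), MEE3 (-0.67) and AT3G09450 (-2.42).

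Stress, growth and clock lists held 0 called members each by edgeR without the replicate block. Of 12 cold response genes 4 had an unadjusted p under 0.05, all lower, against 3.81% of all loci. KIN1, a cold-induced protective protein gene, had 91, 38 and 47 counts in atrx-2 against 268, 116 and 56 in Col-0 (log2 -1.50, adjusted p = 0.34). The genotypes overlapped, each atrx-2 library was below the Col-0 library of the same number, and with the replicate block KIN1 was called (adjusted p = 0.00902, or 0.00325 with the 6 low-light libraries alone). The block on those 6 libraries also called RD29A (LTI78), another cold-induced gene, at -0.56 (adjusted p = 0.0167). The cold list's median of -0.16 became 0.003 without Col-0 replicate 1, -0.09 without atrx-2 replicate 1 and -0.33 without Col-0 replicate 3. AT5G54530, higher in atrx-2, was called with the block in the 12-library fit (adjusted p = 0.0378) and by DESeq2 (adjusted p = 0.00522). DESeq2 also called AT3G28220, higher in atrx-2 (log2 0.68, adjusted p = 0.0111), and AT2G32150, lower in atrx-2 (log2 -0.55, adjusted p = 0.00521). The edgeR block on the 6 low-light libraries called AT2G32150 as well (adjusted p = 0.00793). Among salicylic acid genes the synthesis enzyme ICS1 had a log2 difference of 0.25, among 12 shade genes XTR7, a cell wall enzyme, had -0.34, among sugar starvation genes SEN1 had -0.55 (adjusted p = 0.0477 with the block on the 6 low-light libraries), and among clock genes CCA1 had -0.19; each was the only member of its list under an unadjusted 0.05. Of 9 heat shock, 11 flavonoid, 9 DNA damage and 8 replication genes tested, 0 were. In the pollen coat oleosin cluster 2 of 6 genes were tested and both were higher: GRP20 had 31, 29 and 31 counts in atrx-2 against 9, 8 and 11 in Col-0 (log2 1.43, adjusted p = 0.19), and GRP19 had 11, 22 and 27 in atrx-2 against 7, 4 and 1 in Col-0 (log2 2.06, adjusted p = 0.393). The pollen and seed markers summed to 0.114 to 0.202 CPM in atrx-2 and 0.0848 to 0.503 CPM in Col-0. Of 60 tested mitochondrial genome genes, 2 were higher and 3 lower at an unadjusted p under 0.05, against 2.73% and 3.81% of all loci. Their median of 0.03 was -0.19 without Col-0 replicate 1 and 0.29 without Col-0 replicate 3.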

How the data were processed

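Per the labels, total RNA of whole seedlings was sequenced as single 50-base reads. Estimated counts and TPM values per transcript were made by the authors with kallisto 0.42 against TAIR10, per the submitters' processing notes; each deposited table also gives length and effective length (other). Strand use in counting is not given in the sources used here, so reads of overlapping genes cannot be told apart. The authors' estimated counts were rounded, since 12.3 to 13.9% of them were not whole, and tested with edgeR 4.0.16 (R 4.3.3, limma 3.58.1): TMM scaling, low-count filter by group and the quasi-likelihood test in a 4-group fit of all 12 libraries with 8 residual degrees of freedom (biological coefficient of variation 10.4%), adjusted over all 20783 loci. Depth limits low genes most. DESeq2 1.42.0 was an alternative, and 15 alternatives were run under low light. The deposited TPM values were averaged only for levels between genes. The procedure was tested on simulated data.

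Names, coordinates and sequences came from RefSeq TAIR10.1, which holds 32835 of the 33602 loci; deposited lengths of 84.8% of 4796 pseudogene and small RNA loci equal its spans. Replicates of a genotype differed by more than sampling noise (chi-square 6.1 to 29.6 per gene). Same-numbered libraries of the genotypes deviated together (correlations 0.144, 0.105 and 0.187), while the labels state no pairing. The main fit held no replicate term, so its calls and p-values leave out any pairing by number. Fits with the replicate number as a block were alternatives, and they changed which loci were called. Genes were named by rule: ATRX, LHP1 and FLC, every called gene, the next 12 by p with at least 1 CPM and no overlap, up to 3 members of each list by p or the family described, neighbours with an unadjusted p under 0.05, and 3 genes each way called by DESeq2 alone. AT3G61030, PIP5K4, CSD2, CCS, FT, IRT1, FRO2, WUS and LEC1 were named after their values were seen. The 28 pathway lists (340 loci) and 5 marker lists (38 loci) were chosen with earlier results of these data known.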

Additional observations from a re-analysis of the deposited data

Results flagged for a closer look

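BHLH38 (AT3G56970) had genotype effects that differed between the light levels by a test of the difference itself: the interaction was 2.51 on the log2 scale (edgeR adjusted p = 0.0461), with atrx-2 above Col-0 in all 3 libraries under low light and below Col-0 in all 3 under normal light. The call was lost with the replicate block (adjusted p = 0.184), with the 18S share as a covariate (0.102) and without atrx-2 replicate 1, 2 or 3 (0.215, 0.242 and 0.0606) or Col-0 replicate 1 (0.0878). The cause was not tested.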

How the results depend on the processing

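The low-light count of 15 became 57 with DESeq2, 26 without the low-count filter, 6 with a mean of at least 5 CPM required, and 62 with the replicate block on the 6 low-light libraries alone, which kept 13 of the 15; it ran from 7 to 21 as each low-light library was left out, and was 7 without Col-0 replicate 2. The replicate block in the 12-library fit gave 14, kept 10 of the 15, and dropped AT3G60170, AT2G32870, AT3G13270, BHLH38 and AT1G14960; among the named genes it added KIN1 and AT5G54530 and changed no other low-light call. The block on the 6 libraries alone dropped BHLH38 (adjusted p = 0.059) and AT1G14960 (adjusted p = 0.052). Among the named genes it added KIN1, RD29A, AT5G54530, MYB29, AT3G44380, AT5G45428, NIT2, VTC4, IMA2, SEN1, CSD2 and AT2G32150. RLE scaling gave 15, the 6 low-light libraries alone 21, the fit without organelle and ribosomal RNA loci 15, and the 18S share as a covariate 16. The interaction count of 1 was 3 with DESeq2 and 0 with at least 5 CPM, with the replicate block and with the 18S covariate, and ran from 0 to 1 as libraries were left out (0 without atrx-2 replicate 1 or 2); the 18S covariate gave BHLH38 an adjusted p of 0.102. The normal-light count of 14 was 58 with DESeq2, 41 without the filter, 5 with at least 5 CPM and 25 without organelle and ribosomal RNA loci. Differences in share, in percentage points, ran from -1.08 to 0.961 for chloroplast genes, -0.0374 to 0.0643 for mitochondrial genes and -2.11 to 1.22 for 18S as libraries were left out. No named gene reversed a called direction under the alternatives run. List medians were not tested, and some changed sign. The chloroplast genome ran from -0.25 to 0.29, the mitochondrial genome from -0.19 to 0.29 and indole glucosinolate genes from -0.17 to 0.13. The FLC clade (-0.14 to 0.13), DNA damage (-0.09 to 0.10), flavonoid (-0.13 to 0.08) and salicylic acid (-0.01 to 0.20) lists changed sign too. So did the H3.3 and chaperone (-0.01 to 0.14), flowering time (-0.08 to 0.01), cold (-0.33 to 0.003) and shade (-0.16 to 0.0008) lists. The antenna (-0.25 to -0.14), aliphatic glucosinolate (-0.39 to -0.19) and iron deficiency (0.15 to 0.23) lists kept their sign. The cause of these changes was not tested beyond what each alternative leaves out. Folds of loci at 0 in a genotype are bounds, since this depth does not tell 0 from a few counts.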
